A study of Mus musculus with 16 samples.

Results

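The Schlafen family was examined in bone marrow-derived DCs (BMDCs) of C57BL/6 mice after stimulation with the bacterial second messenger c-di-GMP. Its members were taken by name from the deposited table, as the rows *Slfn1*, *Slfn2*, *Slfn3*, *Slfn4*, *Slfn5*, *Slfn8* and *Slfn9*, which are 7 of 23356 genes. RNA-seq was carried out on 16 samples, 2 for each of 8 conditions. BMDCs came from wild-type mice and from mice lacking *Tmem173* (*Tmem173*-/-), *Irf1* (*Irf1*-/-) or both *Irf3* and *Irf7* (*Irf3/7*-/-), each left untreated or given 25 µg/ml c-di-GMP (the dose in the sample labels), both for 18 h. All cells had been grown from bone marrow with GM-CSF and IL-4, and floating or loosely attached cells were used with no sort stated. *Tmem173* encodes STING, which binds c-di-GMP, and *Irf1*, *Irf3* and *Irf7* encode interferon regulatory factors. The knockouts were of whole mice and not of one cell type.

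The values are FPKM (read fragments divided by transcript length in kilobases and by the mapped fragments of the library), a level that may be compared between genes. The authors had combined the replicates of a condition before deposition, so each condition has 1 FPKM and the authors' confidence interval, which is given in brackets below. No spread between replicates could be computed, and no p-value is given. Genes entered a comparison when either condition reached 1 FPKM and the status was OK on both sides. Higher or lower calls were made where the change was more than 2-fold after adding 0.1 FPKM to each value and the intervals did not overlap. All 7 genes were tested in each of the 11 comparisons. The 95% intervals of log2 changes take each bound as 2 SE from the FPKM and cover the error that the authors' software estimated, not differences between cultures.

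Schlafen genes, named after the German word for sleeping, were first described as regulators of T cell growth in the mouse and are known as interferon-induced genes. The short members *Slfn1* and *Slfn2* hold little more than the Schlafen core, *Slfn3* and *Slfn4* are of intermediate length, and the long members *Slfn5*, *Slfn8* and *Slfn9* carry a helicase-like domain at the C terminus. *Slfn2* is required for the quiescence of T cells and monocytes, *Slfn4* is known from macrophages and other myeloid cells, and relatives of the long class in humans act on tRNA and restrict viruses. By the GENCODE gene models, the longest coding lengths corresponded to 337 residues for *Slfn1*, 378 for *Slfn2*, 640 for *Slfn3*, 602 for *Slfn4*, 884 for *Slfn5* and 910 for *Slfn8* and for *Slfn9*.

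The 7 genes form a cluster on chromosome 11. Their listed loci run from base 82911253 to base 83215154 (304 kb) in the order *Slfn5*, *Slfn9*, *Slfn8*, *Slfn2*, *Slfn1*, *Slfn4* and *Slfn3*. These positions match the annotation of GRCm38, although the submitters' processing notes name mm9. *Slfn8* and *Slfn9* are on the minus strand and the others on the plus strand. The listed locus of *Slfn5* is merged with those of *Unc45b* and 1700003F17Rik, and *Slfn5* itself lies at 82951349 to 82964840 in GENCODE. *Unc45b* stayed at or below 0.146 FPKM in all 8 conditions and 1700003F17Rik was listed at 0 in each, whereas *Slfn5* was at 4.59 FPKM or more.

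The promoter windows of the 7 genes (RefSeq, GRCm38.p6, 250 bases before to 50 after the start site) were searched on both strands for GAAANNGAA, a pair of cores as bound by IRF proteins, and for TTCNNNGAA, the site of STAT dimers. GAAANNGAA was found in the 3 long members and in none of the 4 others, and 8.56% of all 32851 windows hold it. TTCNNNGAA was found in no member and in 8.30% of all windows. The motifs do not overlap one another in these windows. The stretches of the long members with the match are shown because their genes differed in response to c-di-GMP, with log2 changes in wild-type BMDCs of 3.02 (*Slfn5*), 3.03 (*Slfn8*) and 1.23 (*Slfn9*). *Slfn4* and *Slfn1*, which had larger changes, lack the match. Capitals mark the match, which reads TTCNNTTTC where it lies on the other strand.
*Slfn5*, chr11:82951922-82951984, plus strand, 2 matches: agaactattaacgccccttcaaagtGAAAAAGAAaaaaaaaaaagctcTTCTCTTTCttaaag
*Slfn8*, chr11:83020811-83020890, minus strand: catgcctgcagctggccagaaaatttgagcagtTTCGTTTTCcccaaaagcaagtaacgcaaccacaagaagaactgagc
*Slfn9*, chr11:82991831-82991910, minus strand: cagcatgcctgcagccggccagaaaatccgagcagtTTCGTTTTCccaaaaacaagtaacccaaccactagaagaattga
The 2 matches of *Slfn5* begin 155 and 132 bases before the start site, that of *Slfn8* 47 bases and that of *Slfn9* 44 bases before it. The windows upstream of *Slfn8* and *Slfn9* were alike, with 208 of 239 aligned bases identical (87.0%), and share the match with its flanks.

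The short and intermediate members share other letters. ACTTCCTGG, which holds the GGAA core of ETS factor sites on the other strand, was noticed on reading the promoters and then counted. It occurs once in each of *Slfn1*, *Slfn2*, *Slfn3* and *Slfn4*, in none of the long members, and in 0.843% of all windows. Since it was chosen from these windows, its share is a description. The capitals below mark it.
*Slfn1*, chr11:83116730-83116809, plus strand: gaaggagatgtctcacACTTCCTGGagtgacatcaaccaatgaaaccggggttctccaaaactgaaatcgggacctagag
*Slfn2*, chr11:83065022-83065101, plus strand: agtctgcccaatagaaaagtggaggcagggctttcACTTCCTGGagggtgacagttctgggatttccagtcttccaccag
*Slfn3*, chr11:83191240-83191319, plus strand: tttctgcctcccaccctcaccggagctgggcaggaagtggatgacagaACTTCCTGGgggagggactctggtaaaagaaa
*Slfn4*, chr11:83175096-83175175, plus strand: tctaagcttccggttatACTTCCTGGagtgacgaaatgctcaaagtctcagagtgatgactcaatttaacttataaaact
The stretch begins 74 bases before the start site in *Slfn1*, 55 in *Slfn2*, 42 in *Slfn3* and 73 in *Slfn4*. *Slfn4*, with the largest change of the family, and *Slfn3*, with the smallest, both hold it.

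**Figure D1:**
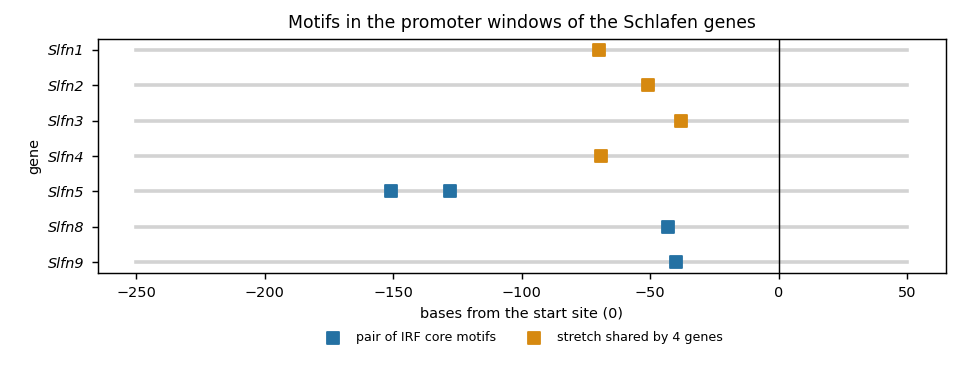
Each grey line is the promoter window of a Schlafen gene, from 250 bases before to 50 bases after the start site, and squares mark the middle of each match. Blue squares (GAAANNGAA, the pair of IRF core motifs) are in *Slfn5*, *Slfn8* and *Slfn9*, and orange squares (ACTTCCTGG) in *Slfn1* to *Slfn4*.

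The targeted genes were read first. *Tmem173* was at 103 FPKM untreated and 118 treated in wild-type BMDCs, and at 8.98 and 7.49 in *Tmem173*-/- BMDCs. *Irf1* was at 149 untreated and 245 treated in wild-type BMDCs and at 25.9 and 116 in those labelled *Irf1*-/-. *Irf7* was at 687 FPKM in treated wild-type BMDCs and at 4.98 in treated cells labelled *Irf3/7*-/-. *Irf3* was at 20.0 and 15.8 in wild-type BMDCs and at 7.74 and 20.2 in those labelled *Irf3/7*-/-, so its treated level was not below that of wild-type. The table gives 1 value per gene, so it does not show whether the deleted exons were read, and both genotypes are named below by their labels.

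Dendritic cell markers were present throughout, with 6 of 6 at 1 FPKM or more in every condition and a sum between 4243 and 6064 FPKM. *Cd74* was most of that sum (4278 of 5182 FPKM in untreated wild-type BMDCs), so it does not show equal dendritic cell content. In untreated *Irf1*-/- against untreated wild-type BMDCs, *H2-Ab1* was at 278 against 650 FPKM, *Ciita* at 6.75 against 25.9 and *Itgax* at 369 against 210. Markers of other cells differed between the cultures. The sum of 6 T cell markers was 140 FPKM in untreated wild-type BMDCs. It was 17.2 for *Tmem173*-/-, 63.3 for *Irf1*-/- and 143 for *Irf3/7*-/- cells. *Thy1* was the largest part of this sum, at 89.5 FPKM in untreated wild-type and 58.8 in untreated *Irf1*-/- BMDCs. *Cd3e*, *Cd3d* and *Cd3g* were at 9.18, 11.1 and 15.3 FPKM in untreated wild-type BMDCs. They were at 0.641, 0.993 and 1.01 in untreated *Irf1*-/- BMDCs and at 0.158 or less in untreated *Tmem173*-/- BMDCs. The sum of 6 neutrophil markers was 3922 FPKM in untreated wild-type and 19260 in untreated *Tmem173*-/- BMDCs. *S100a8* and *S100a9* made up most of this sum in every condition, at 2531 and 1350 FPKM in untreated wild-type BMDCs. In bulk RNA, fewer cells of a type and less RNA per cell cannot be told apart.

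In wild-type BMDCs, c-di-GMP raised 6 of the 7 Schlafen genes, and *Slfn2* remained the largest part of the family's summed level while its share fell. Of all 11201 genes tested, 10.5% were called higher. The median log2 change of the 7 genes was 3.02, beside 0.003 for all genes tested. No Schlafen gene was called lower. In the same comparison the neutrophil marker sum was 3922 FPKM untreated and 1801 treated, and the T cell sum 140 and 77.1. *S100a8* and *S100a9* were most of the neutrophil sum, and *Camp* alone on that list went the other way, from 18.8 to 37.0 FPKM. The part of these markers in the Schlafen changes was not tested.

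*Slfn4* had the largest change. Its level in wild-type BMDCs was 1.17 FPKM (0.794–1.55) untreated and 105 FPKM (78.5–131) treated, an 82.5-fold difference. The log2 change was 6.37 (95% interval 5.82 to 6.91), which ranked 13 among the 1175 genes called higher. Before treatment only 1.64% of the genes with at least 1 FPKM lay below *Slfn4*, and after treatment 91.6% did.

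*Slfn1*, first found as a brake on thymocyte growth, rose from 22.5 FPKM (16.6–28.3) to 233 (173–293) in wild-type BMDCs, a log2 change of 3.37 (2.85 to 3.89). *Slfn2* rose from 202 FPKM (154–250) to 645 (487–803), a log2 change of 1.68 (1.19 to 2.16). Untreated, *Slfn2* was 8.96-fold above *Slfn1*, and it had the smaller change.

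Among the long members, *Slfn5* rose from 20.2 FPKM (15.6–24.8) to 164 (119–209) in wild-type BMDCs, a log2 change of 3.02 (2.51 to 3.52). *Slfn8* rose from 4.77 FPKM (3.61–5.93) to 39.7 (28.6–50.8), a log2 change of 3.03 (2.51 to 3.55). *Slfn9* rose from 6.01 FPKM (4.58–7.43) to 14.2 (11.02–17.4), a log2 change of 1.23 (0.77 to 1.68). *Slfn8* and *Slfn9* had overlapping intervals before treatment and separate ones after it, with *Slfn8* the higher.

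*Slfn3*, which has been studied in the differentiation of intestinal epithelium, was the exception. It was at 6.10 FPKM (4.45–7.75) untreated and 9.96 (7.45–12.4) treated, with a log2 change of 0.70 (0.18 to 1.21), and the intervals overlapped. *Slfn3* and *Slfn4* are neighbours of the same length class, and their log2 changes were at the ends of the family's range.

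**Figure D2:**
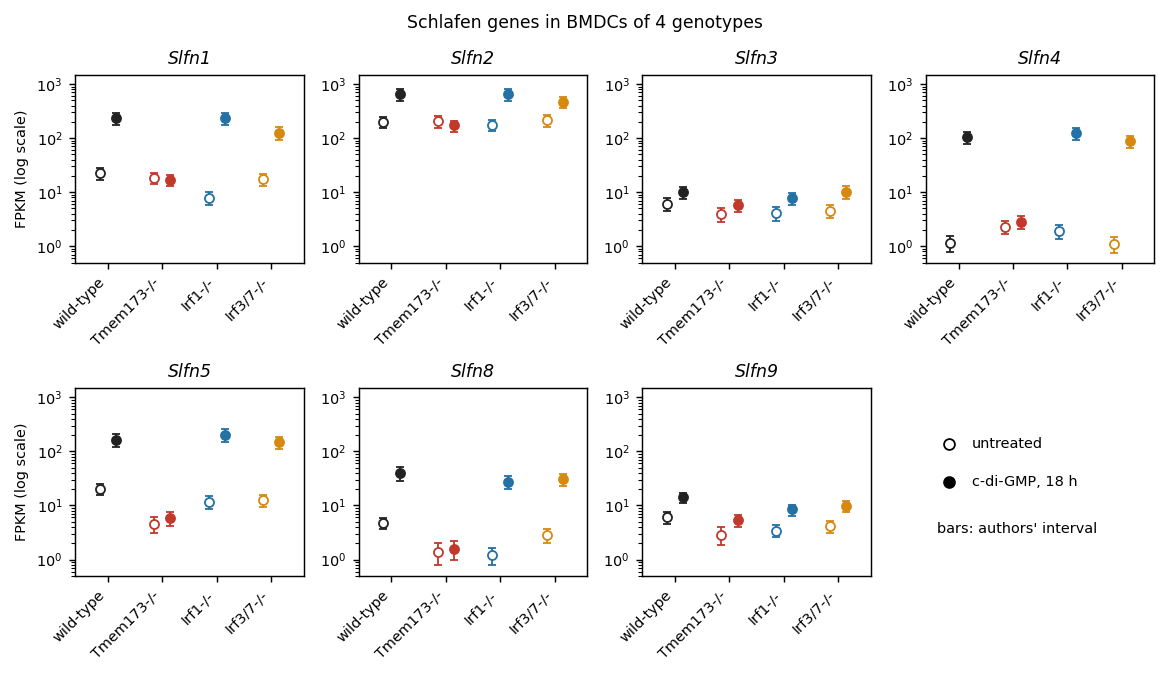
FPKM on a log axis of each Schlafen gene by genotype, with open circles for untreated and filled circles for c-di-GMP-treated BMDCs and bars for the authors' interval. *Slfn4* goes from 1.17 to 105 FPKM in wild-type BMDCs, whereas in *Tmem173*-/- BMDCs the intervals of the open and filled circles overlap for each gene.

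The order of levels changed with treatment. In untreated wild-type BMDCs *Slfn2* came first, followed by *Slfn1* and *Slfn5*, whose intervals overlapped, then by *Slfn3*, *Slfn9* and *Slfn8*, whose neighbouring intervals also overlapped, and last by *Slfn4*. In treated wild-type BMDCs the order was *Slfn2*, *Slfn1*, *Slfn5*, *Slfn4*, *Slfn8*, *Slfn9* and *Slfn3*. The neighbours *Slfn1* and *Slfn5*, *Slfn5* and *Slfn4*, and *Slfn9* and *Slfn3* had overlapping intervals there. *Slfn2* was the highest member in all 8 conditions and its interval lay apart from that of the next member in each.

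The summed level of the family rose from 262 to 1211 FPKM in wild-type BMDCs, 4.61-fold. *Slfn2* made up 76.9% of it before and 53.3% after treatment. The share of *Slfn1* went from 8.58% to 19.3%, that of *Slfn5* from 7.69% to 13.5% and that of *Slfn4* from 0.446% to 8.64%. The share of *Slfn3* went from 2.33% to 0.823%.

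**Figure D3:**
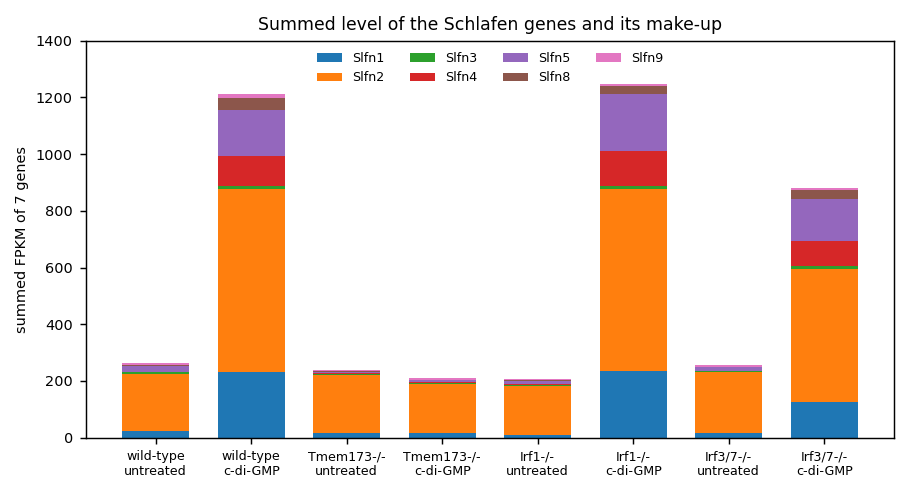
Bars give the summed FPKM of the 7 Schlafen genes in each condition, divided by gene, with no error shown. The treated sum is 1211 for wild-type, 209 for *Tmem173*-/-, 1249 for *Irf1*-/- and 882 for *Irf3/7*-/- cells, and *Slfn2* is the largest part of each bar.

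In *Tmem173*-/- BMDCs none of the 7 genes was called with c-di-GMP. The median log2 change was 0.29, between -0.25 for *Slfn2* and 0.84 for *Slfn9*, beside -0.02 for all genes tested. Only 0.046% of the 10867 genes tested were called higher and 0.0092% lower in this genotype, so the members did not stand out in having no call.

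The levels in *Tmem173*-/- BMDCs without and with c-di-GMP lay close together for most members. *Slfn4* was at 2.31 FPKM (1.71–2.92) and 2.85 (2.12–3.59). *Slfn1* was at 18.2 (13.9–22.4) and 16.9 (12.8–20.9). *Slfn2* was at 204 (157–252) and 171 (132–210). The intervals overlapped for each of them.

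The long members were lower in this genotype than in wild-type BMDCs, both without and with treatment. With treatment *Slfn1*, *Slfn2* and *Slfn4* were lower as well. *Slfn5* was at 4.59 FPKM (3.15–6.13) and 5.84 (4.15–7.60) and *Slfn8* at 1.40 (0.810–2.0) and 1.58 (0.973–2.20). *Slfn9* was at 2.90 (1.84–4.08) and 5.28 (3.92–6.65), and *Slfn3* at 3.93 (2.76–5.10) and 5.73 (4.23–7.23). For *Slfn9* the 95% interval of the log2 change, 0.20 to 1.48, did not include 0, but the authors' intervals overlapped and the change was below 2-fold. The family sum was 237 FPKM untreated and 209 treated.

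Set against treated wild-type BMDCs, treated *Tmem173*-/- BMDCs had lower levels of 6 of the 7 genes, with a median log2 difference of -3.78 beside 0.02 for all genes. In this comparison 13.5% of the 11318 genes tested were called lower. *Slfn4* was 35.5-fold lower, *Slfn5* 27.7-fold, *Slfn8* 23.7-fold and *Slfn1* 13.8-fold. The differences of *Slfn2* (3.77-fold lower) and *Slfn9* (2.66-fold lower) were smaller. *Slfn3* was not called, at 5.73 against 9.96 FPKM, with a log2 difference of -0.79 (-1.29 to -0.28) and intervals that did not overlap. The neutrophil marker sum was 13910 FPKM in these cells and 1801 in treated wild-type BMDCs, and the T cell sum 14.7 and 77.1. Their part in the difference was not tested.

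The change with c-di-GMP was also compared between genotypes, as the log2 change in the knockout minus that in wild-type BMDCs. For *Tmem173*-/- this difference was -6.07 (-6.82 to -5.33) for *Slfn4*, -3.47 (-4.17 to -2.78) for *Slfn1*, -2.86 (-3.78 to -1.94) for *Slfn8*, -2.68 (-3.46 to -1.89) for *Slfn5* and -1.93 (-2.60 to -1.26) for *Slfn2*. The intervals of these 5 did not include 0. The intervals of *Slfn3* (-0.92 to 0.59) and *Slfn9* (-1.17 to 0.40) included 0. Those are the members with the smallest changes in wild-type BMDCs.

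In BMDCs labelled *Irf1*-/- the same 6 genes as in wild-type BMDCs were called higher with c-di-GMP, with a median log2 change of 4.09 beside 0.002 for all genes. Of the 11164 genes tested, 9.67% were called higher. *Slfn3* again was not called, at 4.10 FPKM (2.93–5.26) and 7.79 (5.76–9.81), although its intervals lay apart.

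*Slfn1*, *Slfn5* and *Slfn8* had untreated intervals below those of wild-type BMDCs and treated intervals that overlapped the wild-type ones. *Slfn1* was at 7.94 FPKM (5.74–10.1) untreated and 236 (174–297) treated. *Slfn5* was at 11.9 (8.76–15.0) and 203 (149–257). *Slfn8* was at 1.22 (0.808–1.63) and 27.2 (19.8–34.7). The log2 change exceeded that in wild-type BMDCs by 1.51 (0.76 to 2.25) for *Slfn1*, 1.34 (0.56 to 2.12) for *Slfn8* and 1.07 (0.35 to 1.80) for *Slfn5*, and these 3 intervals did not include 0.

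The other 4 members had intervals of this difference that included 0. *Slfn4* was at 1.94 FPKM (1.39–2.49) untreated and 124 (92.7–155) treated, *Slfn2* at 175 (133–217) and 643 (485–800), and *Slfn9* at 3.43 (2.57–4.28) and 8.45 (6.49–10.4). The differences from the wild-type change were -0.44 (-1.19 to 0.32) for *Slfn4*, 0.20 (-0.49 to 0.88) for *Slfn2*, 0.05 (-0.61 to 0.70) for *Slfn9* and 0.21 (-0.53 to 0.95) for *Slfn3*. The family sum rose 6.07-fold, from 206 to 1249 FPKM.

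Against treated wild-type BMDCs, no Schlafen gene was called in treated *Irf1*-/- BMDCs. Of the 11079 genes tested, 4.91% were called lower and 2.65% higher, so having no call did not set the members apart. The log2 differences ran from -0.74 for *Slfn9* to 0.31 for *Slfn5*, with a median of -0.005. *Slfn9*, at 8.45 against 14.2 FPKM, was the one member whose intervals lay apart (-1.19 to -0.29). The 95% interval was -0.50 to 0.53 for *Slfn1* and -0.50 to 0.49 for *Slfn2*, so differences of those sizes in either direction remain possible. Markers differed between these cultures. The T cell marker sum was 56.9 FPKM in treated *Irf1*-/- and 77.1 in treated wild-type BMDCs. Within it *Cd3e* was at 0.479 against 5.41 FPKM, while *Thy1*, its largest part, went the other way, at 47.2 against 40.5. The NK cell marker sum was 0.657 against 6.13, *H2-Ab1* 331 against 890 and, in the other direction, *Itgax* 255 against 135. Their part was not tested.

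In BMDCs labelled *Irf3/7*-/- all 7 genes, *Slfn3* included, were called higher with c-di-GMP. The median log2 change was 2.83 beside 0.004 for all genes, and 10.2% of the 11283 genes tested were called higher. *Slfn3* went from 4.58 FPKM (3.31–5.85) to 10.3 (7.62–12.9), a log2 change of 1.15 (0.62 to 1.67). Its change was not shown to differ from that in wild-type BMDCs, since the interval of the difference was -0.29 to 1.18.

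*Slfn4* was at 1.11 FPKM (0.754–1.46) untreated and 87.8 (65.6–110) treated in these cells. *Slfn1* was at 17.5 (12.9–22.1) and 125 (92.2–158), and *Slfn2* at 213 (162–263) and 469 (354–584). The treated FPKM of each was numerically below the wild-type one, and for *Slfn1* alone among the 7 the intervals of the treated conditions did not overlap.

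The long members also rose. *Slfn5* went from 12.4 FPKM (9.29–15.6) to 149 (110–187), *Slfn8* from 2.87 (2.0–3.74) to 30.6 (22.5–38.8), and *Slfn9* from 4.17 (3.16–5.19) to 9.87 (7.62–12.1). For none of the 7 genes did the interval of the difference from the wild-type change exclude 0, and the median difference was -0.005. The paper reports that *Slfn5* induction needed IRF3 together with the type I interferon receptor, and did not need IRF1. That result came from DCs lacking both *Irf3* and *Ifnar*, a genotype not among the conditions here. The family sum rose 3.46-fold, from 255 to 882 FPKM.

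Against treated wild-type BMDCs, none of the 7 was called in treated *Irf3/7*-/- BMDCs. Of the 11209 genes tested, 2.69% were called lower and 4.61% higher, so having no call did not set the members apart. The median log2 difference was -0.37. Marker sums of other cells were higher in treated *Irf3/7*-/- than in treated wild-type BMDCs, at 206 against 77.1 FPKM for T cells, 140 against 42.9 for mast cells and basophils and 28.1 against 6.13 for NK cells, and their part was not tested. *Slfn1* had the largest difference, -0.90 (-1.42 to -0.38), which is below 2-fold. The comparison of treated *Irf3/7*-/- with treated *Irf1*-/- BMDCs likewise gave no call, with a median of -0.45 over the 7. Of the 11235 genes tested, 3.22% were called lower and 6.62% higher, so here too the members were not set apart. There *Slfn1* was again the one member with intervals apart, at -0.91 (-1.44 to -0.39). These comparisons share treated conditions and are not independent of each other. The T cell marker sum was 206 FPKM in treated *Irf3/7*-/- BMDCs and 56.9 in treated *Irf1*-/- BMDCs, and its part was not tested.

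**Figure D4:**
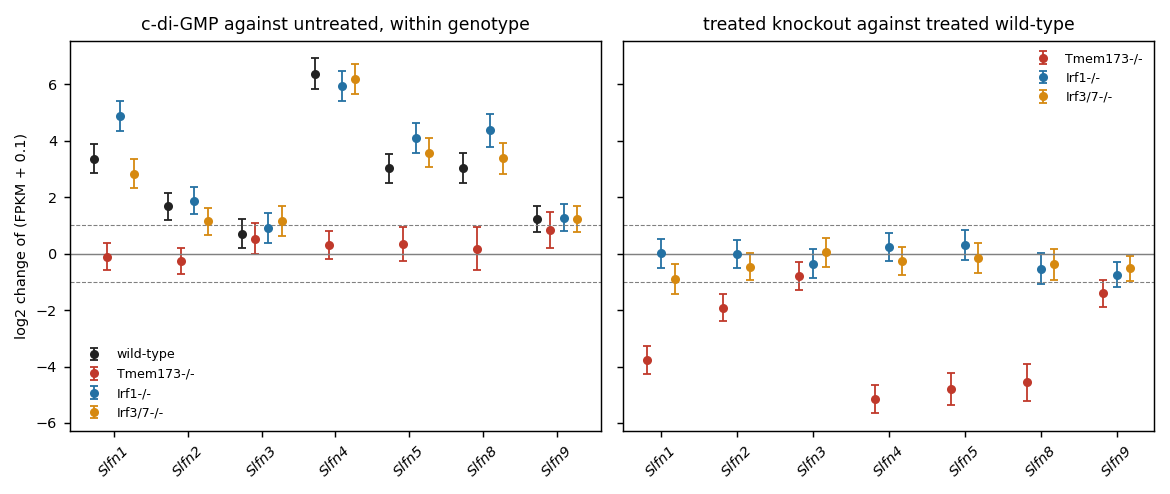
Points are log2 changes of FPKM + 0.1 for each Schlafen gene with 95% intervals from the authors' bounds, with dashed lines at 2-fold. On the left, changes with c-di-GMP in *Tmem173*-/- BMDCs lie between -0.25 and 0.84, and on the right the *Irf1*-/- and *Irf3/7*-/- differences from treated wild-type BMDCs all lie within the 2-fold lines.

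Without c-di-GMP, the genes called lower in a knockout were the long members and *Slfn1*. Untreated *Tmem173*-/- BMDCs had lower *Slfn5* (4.33-fold, log2 -2.11, -2.66 to -1.56), *Slfn8* (3.25-fold, log2 -1.70, -2.36 to -1.05) and *Slfn9* (2.03-fold, log2 -1.02, -1.65 to -0.40) than untreated wild-type BMDCs. Of all 11101 genes tested, 5.95% were called lower. The median over the 7 was -0.62 beside 0.01 for all genes. *Slfn9* was close to the threshold and is not called when 1 FPKM in place of 0.1 is added. *Slfn2* stood at 204 against 202 FPKM, with a log2 difference of 0.02 (-0.45 to 0.49).

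*Slfn4* went the other way in untreated *Tmem173*-/- BMDCs. It was at 2.31 FPKM (1.71–2.92) against 1.17 (0.794–1.55), with intervals apart and a log2 difference of 0.93 (0.37 to 1.48), short of 2-fold. In these cells the neutrophil marker sum was higher and the T cell marker sum lower than in wild-type BMDCs, as given above, and the macrophage marker sum was 251 against 96.2 FPKM. *Csf1r* was most of the macrophage sum (194 against 54.3 FPKM), and *Mertk* alone on that list went the other way (2.83 against 4.89). The part of these markers in the untreated differences was not tested.

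Untreated *Irf1*-/- BMDCs had lower *Slfn8* (3.70-fold, log2 -1.89, -2.44 to -1.33) and *Slfn1* (2.81-fold, log2 -1.49, -2.02 to -0.96). Of the 11017 genes tested, 3.52% were called lower, and the median over the 7 was -0.76. *Slfn5* (log2 -0.76) and *Slfn9* (log2 -0.79) had intervals apart from wild-type but changes below 2-fold. The *Slfn8* calls in both knockouts rest on levels under 5 FPKM in all of the conditions compared. The T cell marker sum (63.3 against 140 FPKM, most of it *Thy1*) and *Cd3e* (0.641 against 9.18) also differed here, and their part was not tested.

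In untreated *Irf3/7*-/- BMDCs no Schlafen gene was called. Of the 11004 genes tested, 0.863% were called lower and 1.17% higher, so having no call did not set the members apart. The log2 differences ran from -0.72 for *Slfn8* to 0.08 for *Slfn2*, with a median of -0.41. *Slfn5*, at 12.4 against 20.2 FPKM, had intervals apart. The 3 comparisons share the untreated wild-type condition. The differences between knockouts in these untreated changes were not tested.

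The cluster holds few other expressed genes. Within 500 kb on either side of the family, 32 other rows of the table were found, of which 20 were tested. Of these, 4 were called higher and 1 lower in treated wild-type BMDCs, beside 10.5% and 9.96% of all genes tested. With so few flanking genes, these counts are a description. Those higher were *Rffl* (log2 1.43), *Rasl10b* (1.99), Gm11435 (2.93) and *Ccl5*, a T cell-attracting chemokine (5.52). *Nle1*, which lies next to the cluster, was lower (-1.78). Apart from the pseudogene *Slfn10-ps*, the rows of the table within the span of the family were *Unc45b* and 1700003F17Rik, neither of which reached the minimum level.

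**Figure D5:**
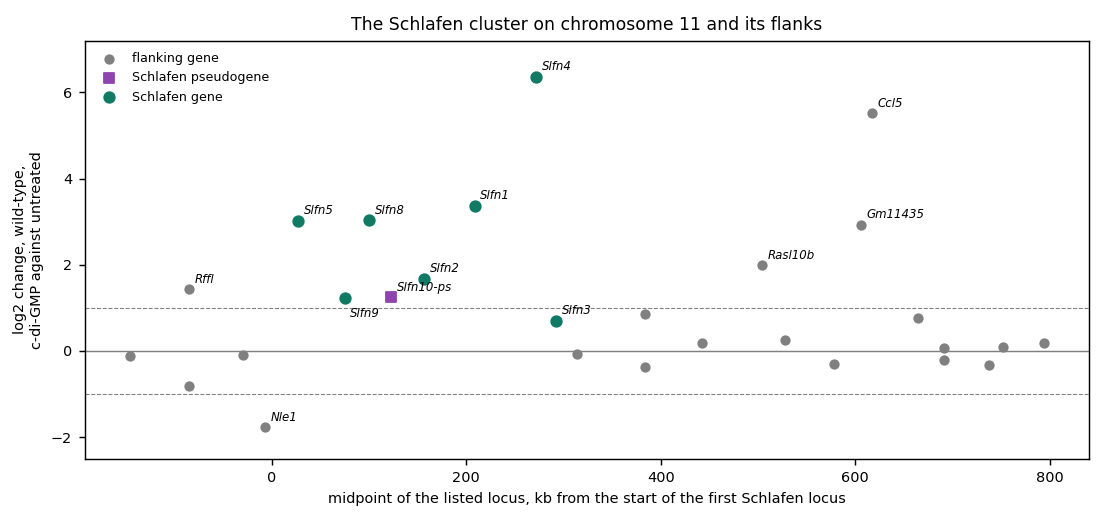
Log2 change in wild-type BMDCs (c-di-GMP against untreated) of the tested genes on chromosome 11, against the distance in kb of their midpoint from the start of the first Schlafen locus. Schlafen genes (green) lie between 0.70 and 6.37, *Slfn10-ps* (purple) is at 1.24, and of the 20 flanking genes (grey) the 5 that were called are named.

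The table lists 3 further rows of the family name. *Slfn10-ps*, a pseudogene between *Slfn8* and *Slfn2*, was at 4.79 FPKM untreated and 11.5 treated in wild-type BMDCs (log2 1.24), and at 1.30 and 2.33 in *Tmem173*-/- BMDCs, where it was not called. It was called higher in *Irf1*-/- (3.46 and 13.1 FPKM) and *Irf3/7*-/- BMDCs (4.36 and 9.41). *Slfn14-ps* and *Slfnl1* stayed at 0.0844 FPKM or less in all conditions.

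Family members share sequence, which bears on how 35-base reads are assigned. Of the 35-base stretches of *Slfn8* transcripts, 23.3% occur in another Schlafen gene, most of them in *Slfn10-ps*, and for *Slfn9* the share was 17.3%. For *Slfn3* and *Slfn4* it was 13.6% each, mostly with one another. Outside the family occur 17.3% of *Slfn3* and 8.71% of *Slfn4* stretches, the largest part of each in Gm11427. The share within the family was 7.18% for *Slfn2*, 1.53% for *Slfn1* and 0 for *Slfn5*. For *Slfn5*, 12.7% of stretches occur outside the family, with 7.86% in its antisense partner *Slfn5os*. The paper states paired reads, and these shares do not take the mate into account. The libraries were stranded, and the paper states an opposing-strand setting for its SeqMonk analysis, but the strand setting of the Cuffdiff run behind these values is not stated there. Levels of *Slfn3*, *Slfn4*, *Slfn8* and *Slfn9* are uncertain to the extent that shared reads were split between copies.

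The interferon pathway was followed by a list of 30 genes. In wild-type BMDCs 19 of 30 were called higher and none lower with c-di-GMP, including all 10 effectors, with a median log2 change of 5.49 over the effectors. Of all genes tested, 10.5% were called higher, and their median log2 change was 0.003. *Rsad2*, which encodes viperin, was the effector with the largest change (log2 8.25), and *Oas1a* that with the smallest (2.30). The Schlafen genes other than *Slfn4* were at or below 3.37. Among ligands, *Ifnb1* was listed at 0 untreated and 2.93 FPKM treated, *Ifna4* at 0 and 3.53, and *Ifng* went from 34.6 to 299 FPKM.

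Of the 4 receptor genes 1 was called higher, of 10 kinases and transcription factors 3, and of 3 feedback genes 2. *Usp18*, which turns off type I interferon signaling, rose by 3.25 on the log2 scale, and *Irf7* by 5.49. *Irf9* (0.75) did not reach 2-fold.

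The list gave 0 calls of 23 genes tested for *Tmem173*-/- cells with c-di-GMP, 21 of 30 higher for *Irf1*-/- and 18 of 29 higher for *Irf3/7*-/- cells. Targeted genes are among these, *Irf1* for *Irf1*-/- and *Irf3* and *Irf7* for *Irf3/7*-/- cells. Of all genes tested, 0.046%, 9.67% and 10.2% were called higher, so the list did not stand out in having no call for *Tmem173*-/- cells. Against treated wild-type BMDCs, 23 of 30 were lower and 1 higher for *Tmem173*-/-, 3 lower and 1 higher for *Irf1*-/-, and 4 lower and 2 higher for *Irf3/7*-/- cells. The lower genes include the targeted *Irf1* for *Irf1*-/- and *Irf7* for *Irf3/7*-/- cells. Of all genes tested, 13.5%, 4.91% and 2.69% were called lower and 12.9%, 2.65% and 4.61% higher in these comparisons. *Ifng* stood at 25.5 FPKM in treated *Irf1*-/- and 1155 in treated *Irf3/7*-/- BMDCs. In the same cells the NK cell marker sum was 0.657 and 28.1 FPKM and the T cell sum 56.9 and 206, and their part was not tested. *Ifnb1* was at 3.53 and 22.6 FPKM in those cells. Between these conditions 3 of the 30 listed genes were called higher and 5 lower, and of the 10 effectors 2 were lower and none higher. The targeted *Irf1* was among those higher and the targeted *Irf7* among those lower. The Schlafen genes differed by less than 2-fold, as did most of the effectors. Whether their levels follow those of the ligands was not tested.

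Untreated, the list was lower for 17 of 28 genes for *Tmem173*-/-, 10 of 28 for *Irf1*-/- and 7 of 28 for *Irf3/7*-/- cells, and none was higher. These counts include targeted genes, *Irf1* for *Irf1*-/- and *Irf3* and *Irf7* for *Irf3/7*-/- cells. Of all genes tested, 5.95%, 3.52% and 0.863% were called lower. For the Schlafen genes the counts were 3, 2 and 0 of 7.

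The genes most like the family were found by Pearson's r of log2 levels over the 8 conditions, among 7375 other genes with at least 10 FPKM in one condition. This is a description over 8 points that share genotypes and treatment. The nearest to the mean of the 7 members was *Iffo2* (r 0.997), followed by *Ehd1*, *Aftph*, *Phf11d* and *Ifi205* (r 0.997 each). *Ifi205*, a p200 family gene, was at 2.37 FPKM untreated and 197 treated in wild-type BMDCs.

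Taken singly, the nearest gene was *Il10ra* for *Slfn1* (r 0.992), *Chmp4b* for *Slfn2* (0.994), *Fnbp4* for *Slfn3* (0.981), *Ankrd24* for *Slfn4* (0.992), *Il2ra* for *Slfn5* (0.999), *Trim12c* for *Slfn8* (0.999) and *Tcf20* for *Slfn9* (0.982). No gene was nearest to more than one member. Among the members themselves r ran from 0.843 between *Slfn4* and *Slfn9* to 0.983 between *Slfn1* and *Slfn2*.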

How the data were processed

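BMDCs were profiled by RNA-seq (stranded mRNA libraries) in 16 samples. The authors ran Cuffdiff (version 1.06 in the submitters' processing notes), which combined the 2 samples of a condition, and deposited 1 FPKM per gene and condition with the bounds of its interval and a status. No source used here gives the aligner. The notes name mm9, whereas the listed Schlafen loci match GRCm38. The columns of *Tmem173*-/- BMDCs are named differently from the others, and the one with an added suffix was read as treated. A further 4 columns, of another knockout, were not used. The stated dose differs between the labels and the paper.

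FPKM values were transformed as log2(FPKM + 0.1). The comparisons, call rule and error were as stated in the report. Depth cannot be read from FPKM. The distance from the FPKM to its bounds was 22.4% to 42.6% of the FPKM for the 7 genes (median 26.0%), and 25.2% to 25.7% in median for 4723 genes with at least 10 FPKM in all conditions.

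Named genes were the members, other Schlafen rows, the targeted genes, a list of interferon pathway genes, genes that overlap or flank the cluster, and the nearest genes by pattern. The members, lists and tests were chosen with earlier results of these data known. Promoters were taken from RefSeq, and all 7 members matched. Gene models were taken from GENCODE. Alternatives were other pseudocounts, filters, fold thresholds and error criteria and median centring. Python 3.11.15, numpy 2.4.6, pandas 2.3.3 and matplotlib 3.10.9 were used.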

Additional observations from a re-analysis of the deposited data

How the results depend on the processing

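No paired analysis was possible because the deposited table holds 1 pooled value per condition, and for the same reason no replicate could be left out. Under 9 alternatives, no direction of a Schlafen gene reversed: of 693 values of single genes under an alternative, 668 kept their call or lack of one, 16 lost a call and 9 gained one. With a 4-fold threshold, 4 of 7 genes in place of 7 were called higher in *Irf3/7*-/- BMDCs with c-di-GMP. The counts within wild-type and within *Irf1*-/- BMDCs, and for treated *Tmem173*-/- against treated wild-type BMDCs, each went from 6 to 4. Untreated *Tmem173*-/- BMDCs had 1 (*Slfn5*) in place of 3 lower, and untreated *Irf1*-/- BMDCs 0 in place of 2. With a 1.5-fold threshold, 1 gene in place of 0 was lower in treated *Irf1*-/- (*Slfn9*) and in treated *Irf3/7*-/- BMDCs (*Slfn1*) against treated wild-type, 1 in treated *Irf3/7*-/- against treated *Irf1*-/- (*Slfn1*), 1 in untreated *Irf3/7*-/- (*Slfn5*) and 4 in untreated *Irf1*-/- BMDCs. With a minimum of 5 FPKM, 1 gene was lower in untreated *Irf1*-/- BMDCs, since *Slfn8* was then not tested. These follow from the thresholds themselves. Of 99 counts, 90 stayed within 1.5 times, among them those that went from 6 to 4. The pseudocount moved *Slfn4* most, from 6.19 to 5.40 in *Irf3/7*-/- BMDCs with 1 FPKM added, and median centring moved no value by more than 0.05 on the log2 scale. Without values per replicate, differences between cultures could not be measured, and the depth of the libraries cannot be read from FPKM.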
